A study of Mus musculus with 2 samples.

Results

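The genes described here are 44 genes of DNA replication and of the passage from G1 into S phase, chosen by name and grouped by function. The groups were G1/S regulators, origin licensing factors, the MCM2-7 ring, the GINS complex with Cdc45 and Mcm10, and the polymerases and primase. Further groups were replication factor C with its clamp, enzymes of nucleotide supply, and factors of chromatin assembly and histone supply. The last group joined genes of single-strand binding, flap removal, ligation and base excision, called strand completion and repair for short. Of these, 43 were matched to at least 1 of the array's probe sets, out of 18193 genes named in all, and Chaf1a was not matched. They had 95 probe sets, of which 81 were measured, which means that their signal lay over a detection floor of 47.04 (the 40th percentile of all values of both arrays) on at least 1 array. All 43 matched genes had a measured probe set. In 27 of them at least 2 probe sets were measured, and 16 rested on a single measured probe set.

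The samples were mouse skeletal myoblasts, the dividing precursor cells of muscle fibres, with an intact Foxj3 gene (WT) or with Foxj3 knocked out (KO). Foxj3 encodes a forkhead transcription factor. Both cultures were at passage 3, had grown in medium with 20% serum and were collected at 80% confluency, and 10 ug of total RNA from each was labelled and hybridised to 1 Affymetrix Mouse430_2 oligonucleotide array. The labels give no animal, strain, age or deleted exon, and 1 array per group allows no test, no p-value and no error between cultures. Each pair of values below gives the WT signal and then the KO signal, also where it lay under the floor, and log2 ratios are KO over WT with signals under the floor set to it. Every value therefore describes these 2 arrays, the precision is limited by their number, and "lower" or "higher" is said of the KO array. In bulk RNA of this kind, fewer cells in S phase and less RNA per cell cannot be told apart.

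Replication of a chromosome starts where the origin recognition complex, with Cdc6 and Cdt1, loads the ring-shaped MCM2-7 helicase in G1. Cyclin E with its kinase and the E2F transcription factors then drive the cell into S phase, when GINS and Cdc45 join the ring, primase and polymerase alpha lay down primers, replication factor C loads the sliding clamp PCNA, and polymerases delta and epsilon copy the strands. Myoblasts divide in growth medium and leave the cell cycle for good as they differentiate, and many of these genes are classical E2F targets.

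Windows around the start sites of these genes carried E2F-like letters more often than promoters in general. Some of the sites are shown as a feature of part of these genes. The genes were chosen by name, but many are classical E2F targets, so the comparison is not independent of their choice. RefSeq windows from 250 bases before to 50 bases after a transcript's start (build GRCm38.p6) were found for 37 of the 44 genes. They were searched on both strands for the words TTTGGCGC, TTTCGCGC, TTTCCCGC and TTTGCCGC. At least 1 word was found in 15 of these genes (40.5%), against 3.29% of 17491 protein-coding genes (575 genes) and 2.26% of all 32851 windows, a comparison not matched for base composition. The MCM2-7 ring held them in 4 of 5 genes, origin licensing in 3 of 4, the polymerases and primase in 3 of 4, the G1/S regulators and the GINS group in 1 of 3 each, the strand completion and chromatin groups in 1 of 4 each, replication factor C with its clamp in 1 of 5, and nucleotide supply in 0 of 5. The other 22 genes held none in these windows. In the windows below, given 5′ to 3′ on the gene's strand, capitals mark the words found, and positions count back from the start site of that transcript.
Cdc6, chr11:98908002-98908031, plus strand, -149 to -120: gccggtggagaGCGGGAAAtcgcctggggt
Mcm5, chr8:75109347-75109376, plus strand, -162 to -133: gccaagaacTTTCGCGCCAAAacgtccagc
Mcm6, chr1:128359725-128359835, minus strand, -130 to -20: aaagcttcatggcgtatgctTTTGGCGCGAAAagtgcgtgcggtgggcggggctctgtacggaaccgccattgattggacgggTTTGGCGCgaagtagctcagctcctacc
Gins3, chr8:95633498-95633545, plus strand, -61 to -14: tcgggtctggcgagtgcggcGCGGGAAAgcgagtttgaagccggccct
Pola1, chrX:93632275-93632304, minus strand, -149 to -120: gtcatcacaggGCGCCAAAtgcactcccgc
Rfc3, chr5:151651209-151651238, minus strand, -30 to -1: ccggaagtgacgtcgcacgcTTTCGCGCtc
Uhrf1, chr17:56304117-56304146, plus strand, -196 to -167: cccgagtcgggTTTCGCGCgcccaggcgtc

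The 12 capitals in Mcm5 and the 12 at the upstream site of Mcm6 each hold 2 overlapping words, 1 on each strand. The median log2 ratio, KO over WT, was -0.056 over the 15 genes with a promoter word and -0.11 over the 21 measured genes without. At least 2-fold lower were 3 of the 15 and 3 of the 21, against 6.72% of all genes. The CCAAT box, which overlaps none of these words and is bound by NF-Y, stood in 22 of the 37 genes (59.5%), against 42.3% of protein-coding genes. A match of letters is a description and not a site of binding.

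By the brightest probe set of each gene, the replication and G1/S genes were slightly lower on the KO array. Of 43 genes, 28 had a log2 ratio below 0 (65.1%, against 53.7% of all 14597 measured genes). The median log2 ratio was -0.30, beside -0.055 over all genes, and the middle 50% of these genes lay between -0.54 and 0.082. At least 2-fold lower were 7 genes (16.3%), against a background of 6.72% of all genes, and 0 were at least 2-fold higher, against 3.73%. The folds of the 7 ran from 2.11 upward, and 6 of them were under 3-fold; that of Ung is a bound of at least 2.99. At a threshold of 1.5-fold, 10 genes were lower (23.3%, background 19.3%) and 1 was higher (background 12.8%), and 32 of 43 differed by less.

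**Figure D1:**
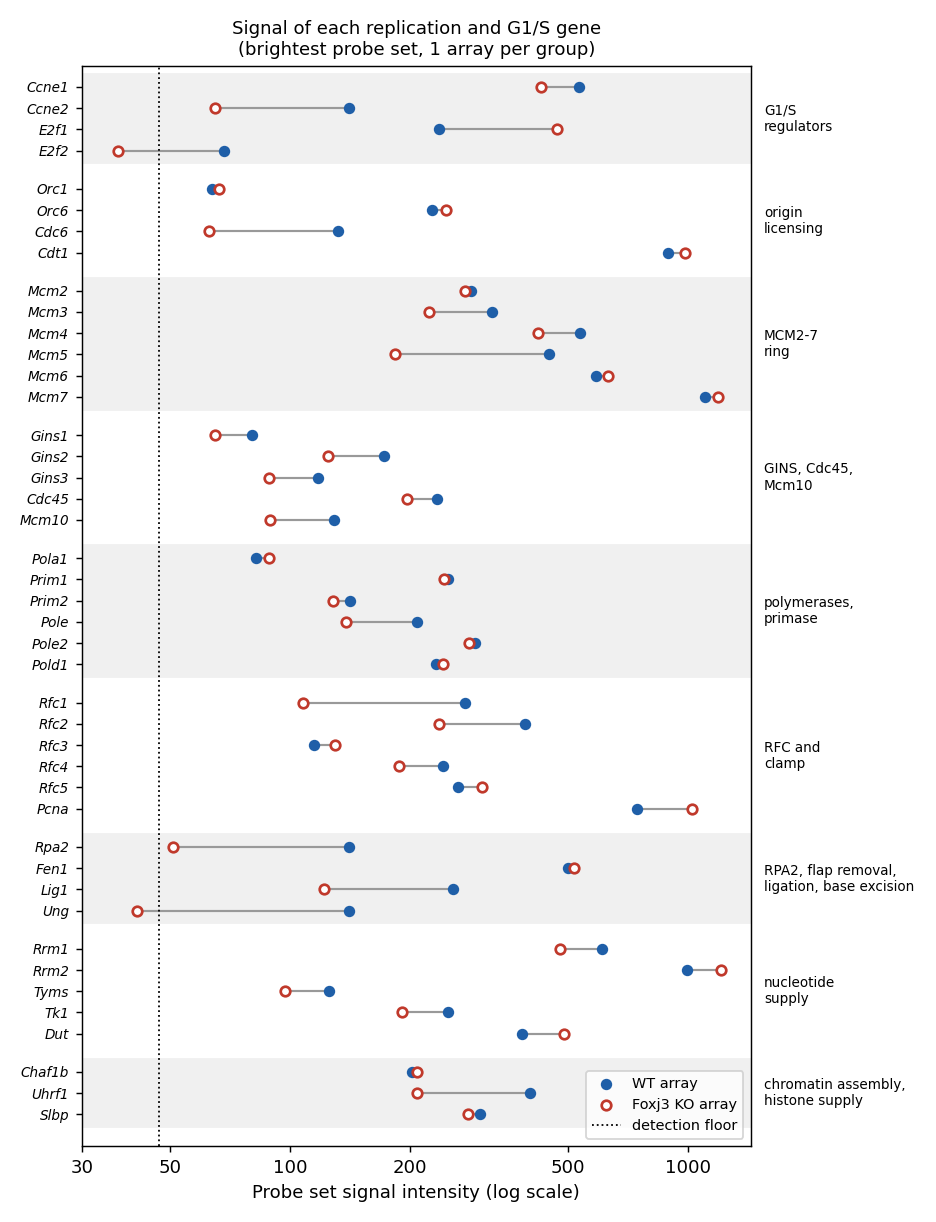
Signal intensity (log axis) of the brightest probe set of each of 43 genes on the WT array (filled) and the KO array (open), 1 array per group, ordered by complex, with the detection floor as a dotted line. The KO points of Ung and E2f2 lie under the floor, and most pairs of points lie close together.

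The 7 lower genes were spread over 5 of the 9 functional groups. They were Ung, a uracil-DNA glycosylase, Rpa2, a subunit of the single-strand binding protein RPA, Rfc1, the large subunit of the clamp loader, Mcm5, a subunit of the helicase ring, Ccne2, which encodes cyclin E2, Cdc6, which helps to load the ring, and Lig1, the ligase that joins Okazaki fragments. Of these, 4 (Ung, Ccne2, Cdc6 and Lig1) had no other measured probe set, and the other 3 each had at least 1 measured probe set of opposite sign. None of the 7 was therefore seen at least 2-fold lower by a second probe set.

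In the G1/S regulators the 2 cyclin E genes were lower and the E2F genes were divided. Ccne1, which encodes cyclin E1, read 533.68 and 426.90 by 1441910_x_at, and 408.43 and 232.70 by 1416492_at, so that both probe sets were lower (log2 ratios -0.32 and -0.81). Ccne2 read 140.63 and 64.75, 2.17-fold lower, by its single probe set. E2f1, an activator of S-phase genes and the member with the highest log2 ratio by brightest probe set, read 236.91 and 470.30 by 1431875_a_at (log2 ratio 0.99), just under the 2-fold threshold. Its other probe sets ran the opposite way, at 146.94 and 63.78 by 1417878_at and at 88.65 and 37.69 by 1447840_x_at. The probe sets of E2f1 therefore gave no common direction, with log2 ratios from -1.20 to 0.99. E2f2, a second activator, read 68.22 and 37.03, the latter under the floor, which puts it at least 1.45-fold lower.

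Origin licensing genes were level except for Cdc6. Cdc6 read 132.02 and 62.55, 2.11-fold lower. Cdt1, its partner in loading the ring, read 889.99 and 986.00 by its brightest probe set and 374.98 and 611.98 by another, both higher on the KO array (log2 ratios 0.15 and 0.71). Orc1, the ATPase subunit of the origin recognition complex, read 63.74 and 66.47, close to the floor, and 60.16 and 69.36 by its other probe set. Orc6, a further subunit, read 228.08 and 247.20 (log2 ratio 0.12). The median log2 ratio of the group was 0.088, and its sign turned to -0.035 with quantile scaling.

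In the MCM2-7 ring the direction depended on which probe set was read. By brightest probe sets, Mcm5 read 446.81 and 183.95 (2.43-fold lower), Mcm3 322.17 and 224.02, and Mcm4 534.57 and 419.81. Mcm2 (284.93 and 275.83), Mcm6 (587.04 and 630.79) and Mcm7 (1107.62 and 1191.90) were level. The median was -0.20. Affymetrix marks with the ending _x_at the probe sets in which some probes also match other transcripts, with _s_at those whose probes are shared by several transcripts, and with _a_at those shared by transcripts of 1 gene, while plain _at marks probes meant for 1 transcript. The probe sets that gave Mcm4 and Mcm5 their values end in _x_at, and those of Mcm2, Mcm3 and Mcm7 in _s_at.

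Read by the kind of probe set, the ring showed opposite directions. All 6 of its _x_at probe sets, from 5 of the 6 genes, were below 0, with a median log2 ratio of -0.90 and a range of -1.59 to -0.30. Of its 8 _at or _a_at probe sets, from all 6 genes, 7 were above 0, with a median of 0.32 and a range of -0.38 to 0.79. Among all named genes, 65.1% of _x_at, 50.2% of _at and 45.2% of _a_at probe sets were below 0. Mcm5 read 156.75 and 198.46 by 1415945_at, the opposite of its _x_at probe set. Mcm6 read 634.77 and 211.52 by 1438852_x_at, 3.00-fold lower, against the level values of 1416251_at. Mcm7 read 514.40 and 891.21 by 1416030_a_at, and 654.83 and 295.14 by 1439269_x_at. Mcm2 read 178.45 and 303.45 by 1448777_at. Without _s_at and _x_at probe sets the median of the ring was 0.39 in place of -0.20, and all 6 genes were above 0.

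**Figure D2:**
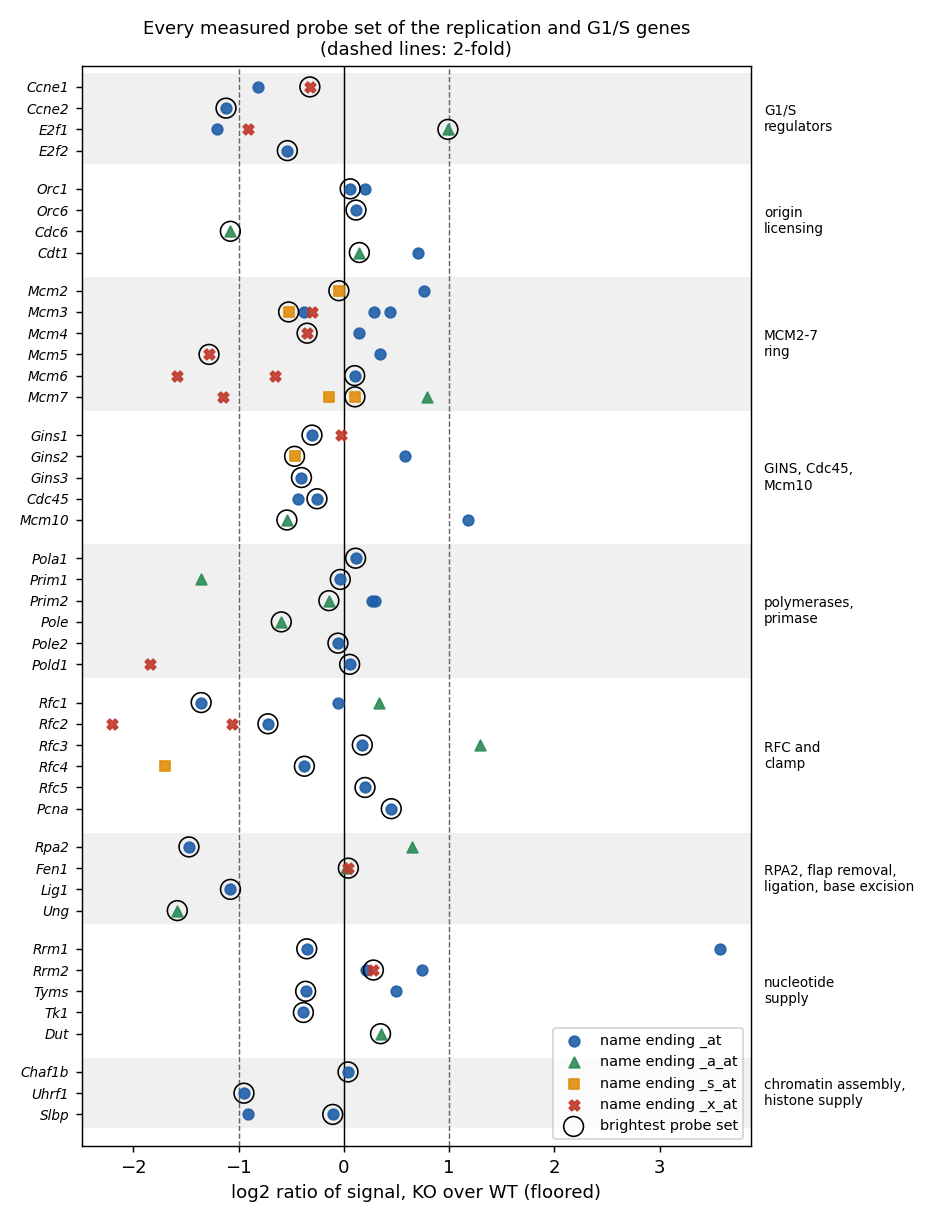
The log2 ratio of signal, KO over WT, for every measured probe set (81) of 43 genes, with the ending of the probe set name as the symbol, a ring around the brightest probe set and dashed lines at 2-fold. The _x_at probe sets of the MCM2-7 ring all lie left of 0, and 7 of its 8 _at and _a_at probe sets lie right of it.

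The same split by kind of probe set ran through the whole table. Over all named genes, 1578 measured _x_at probe sets had a median log2 ratio of -0.27, with 65.1% below 0 and 16.5% at least 2-fold lower. The 18657 plain _at probe sets had a median of -0.0033, with 50.2% below 0 and 5.60% at least 2-fold lower. The 14 _x_at probe sets of the replication and G1/S genes had a median of -0.78, with 12 below 0 (85.7%) and 6 at least 2-fold lower (42.9%). Their 47 _at probe sets had a median of 0.040, with 23 below 0 (48.9%) and 5 at least 2-fold lower (10.6%). Within genes that had both kinds, the _x_at probe sets minus the others gave a median difference of -0.65 in 12 of these genes, lower in 9, and of -0.39 in 1080 genes of the whole table, lower in 70.6%. Over all 81 measured probe sets, 15 were at least 2-fold lower (18.5%, background 6.67%) and 3 at least 2-fold higher (3.70%, background 5.62%). The part of cross-matching probes in these values was not tested.

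**Figure D3:**
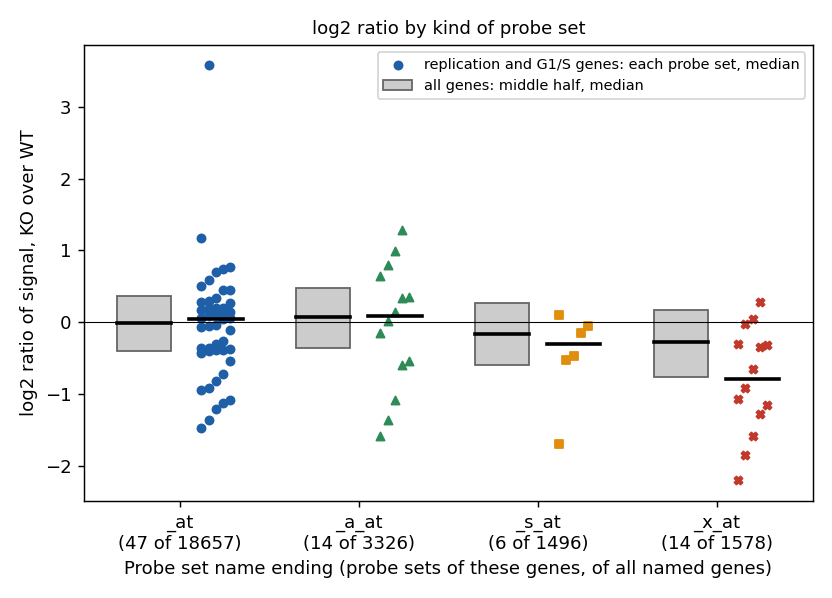
The log2 ratio of signal, KO over WT, by the ending of the probe set name. Grey boxes span the middle 50% of all named genes' probe sets, points are the measured probe sets of the replication and G1/S genes, and black bars are medians; in _x_at probe sets the medians are -0.27 for all genes and -0.78 for these genes.

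GINS, Cdc45 and Mcm10, the factors that turn the loaded ring into a running helicase, were all below 0 by their brightest probe sets, none reaching 2-fold. Gins1 read 80.19 and 65.04, Gins2 172.90 and 125.04, and Gins3 117.48 and 88.91. Cdc45 read 235.02 and 196.99, and its second probe set 84.19 and 62.45, also lower. Mcm10 read 129.40 and 88.96 by 1433408_a_at, whereas 1433407_at read 30.58 and 106.54, at least 2.26-fold higher. Gins2 was divided too, with 72.36 and 108.51 by 1452881_at. The median of the 5 genes was -0.40 and kept its sign under all scalings and floors tried, and it was 0.28 over the 4 genes with a second measured probe set when that was read.

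The replicative polymerases and primase had a median of -0.045 by brightest probe sets, a sign that turned with quantile (0.085) and loess (0.10) scaling. It was -0.32 with the mean over probe sets, and -1.36 over the 3 genes with a second measured probe set when that was read. Pola1, the catalytic subunit of polymerase alpha, read 82.18 and 88.82. Pold1, that of polymerase delta, read 233.29 and 242.46 by 1448187_at, and 340.71 and 94.98 by 1456055_x_at (3.59-fold lower). Pole, that of polymerase epsilon, read 209.23 and 138.64, the lowest log2 ratio of the group at -0.59, and its partner Pole2 read 292.64 and 281.57. The primase subunits showed how far probe sets of a single gene can part. Prim1 read 249.53 and 243.82 by 1418369_at, and 315.00 and 122.91 by 1449061_a_at, although both were drawn from the same accession. Prim2 read 142.00 and 128.71 by its brightest probe set, and its 2 other measured probe sets were above 0 (log2 ratios 0.30 and 0.27).

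Replication factor C and its clamp were divided by subunit. Rfc1 read 275.65 and 107.76, 2.56-fold lower, by 1418342_at, while 1449050_at read 145.47 and 139.66 and 1451920_a_at 29.51 and 59.45. Rfc2 was lower by all 3 of its probe sets, which read 390.69 and 237.06, 265.69 and 127.18, and 216.30 and 42.53. Rfc4 was lower by both, at 243.31 and 187.69, and 229.38 and 70.63. Rfc3 was higher by both, at 115.03 and 129.95, and 43.57 and 115.19. Subunits of this 1 complex thus lay on either side of 0. Rfc5 read 265.11 and 304.84, and Pcna, the sliding clamp, 747.46 and 1021.76 (log2 ratio 0.45), each by a single probe set. Of the 7 genes in the whole set with every one of several probe sets below 0, Rfc2 and Rfc4 had the lowest mean log2 ratios, -1.33 and -1.04, and in both the larger differences came from _x_at or _s_at probe sets.

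The genes of single-strand binding, flap removal, ligation and base excision, which do not form 1 complex, had the lowest median of the 9 groups. It was -1.27 over 4 genes, with 3 at least 2-fold lower (75%, all genes 6.72%). Ung, which removes uracil from DNA, read 140.82 and 41.34, the latter under the floor, and so was at least 2.99-fold lower. Rpa2 read 141.07 and 50.89 (2.77-fold lower) by 1416433_at and, in the opposite direction, 34.94 and 73.54 by 1454011_a_at. Lig1 read 256.63 and 121.67, 2.11-fold lower, by 1 probe set. Fen1, the flap endonuclease that trims Okazaki fragments before Lig1 seals them, was level by both probe sets, at 501.15 and 516.47, and 113.46 and 115.02. With a floor at the 60th percentile the median was -0.71, since the KO signals of Ung and Rpa2 lay below or near the floor. It was -0.74 with the mean over probe sets, and turned to 0.33 over the 2 genes with a second measured probe set when that was read.

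Genes of nucleotide supply differed little by brightest probe sets. Rrm2, the regulated subunit of ribonucleotide reductase, was higher by all 3 of its probe sets, at 994.77 and 1208.90, 549.34 and 633.80, and 124.31 and 208.46. Rrm1, the large subunit, read 610.15 and 478.08 by 1415878_at. Its probe set 1448127_at, drawn from the same accession, read 54.33 and 648.41, 11.9-fold higher and the largest difference among all 81 probe sets. Tyms, thymidylate synthase, read 125.33 and 97.49, with 58.22 and 82.35 by its other measured probe set. Tk1, thymidine kinase, read 250.23 and 191.79, and Dut, which removes dUTP, 383.23 and 488.18. The median was -0.35 by brightest probe sets and 0.35 with the mean over probe sets, so that the group had no settled direction.

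Among chromatin factors, Uhrf1, which guides maintenance of DNA methylation behind the fork, read 401.93 and 208.27 (log2 ratio -0.95), just short of 2-fold and with its other probe set under the floor on both arrays. Chaf1b, a subunit of the histone chaperone CAF-1, was level at 202.44 and 208.17. Slbp, which binds the stem-loop of histone messages, read 301.14 and 279.97, and 88.66 and 20.36 by its other measured probe set, at least 1.88-fold lower.

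Probe sets of the same gene often differed. Of the 27 genes with several measured probe sets, all were below 0 in 7 (Ccne1, Gins1, Cdc45, Prim1, Rfc2, Rfc4 and Slbp), all above 0 in 5 (Orc1, Cdt1, Rfc3, Fen1 and Rrm2), and 15 were mixed. The corresponding shares for all 6251 such genes were 20.7% below and 19.2% above, beside 25.9% and 18.5% here. The range of log2 ratios within a gene had a median of 1.05 here and 0.815 over all genes. In 14 of the 27 genes (51.9%) the probe sets spanned at least 2-fold, against 39.6% of all genes.

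The small shift of the whole set also depended on the probe sets read. The median was -0.26 with quantile, -0.35 with median and -0.24 with loess scaling, and stayed 0.22 to 0.25 below that of all genes under these scalings. It was -0.16 with the mean over probe sets and -0.056 without _s_at and _x_at probe sets, where the median of all genes was -0.027. With only probe sets of NM_, BC or AK accessions, the longer curated or cloned sequences, it was 0.030 over 30 genes, and with the second brightest probe set it was 0.21 over 27. Of the 7 genes at least 2-fold lower, 3 stayed so with a floor at the 60th percentile (Lig1, Mcm5 and Rfc1). They were 7.5% of 40 genes, against 5.99% of all genes with that floor. With a pseudocount equal to the floor 3 stayed (Mcm5, Rfc1 and Ung), 6.98% against 3.34% of all genes. Lig1 came under 2-fold with quantile and loess scaling, where E2f1 passed 2-fold higher. That left 6 of 43 genes at least 2-fold lower under each (all genes 5.78% and 5.55%). With the mean over probe sets, 4 of the 7 stayed (Ung, Ccne2, Cdc6 and Lig1, which rest on a single probe set). Rfc2 and Rfc4 joined them, so that 6 of 43 genes were at least 2-fold lower, against 4.29% of all genes. Without _s_at and _x_at probe sets Mcm5 was not among those lower, and the other 6 of the 7 stayed (all genes 6.09%).

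**Figure D4:**
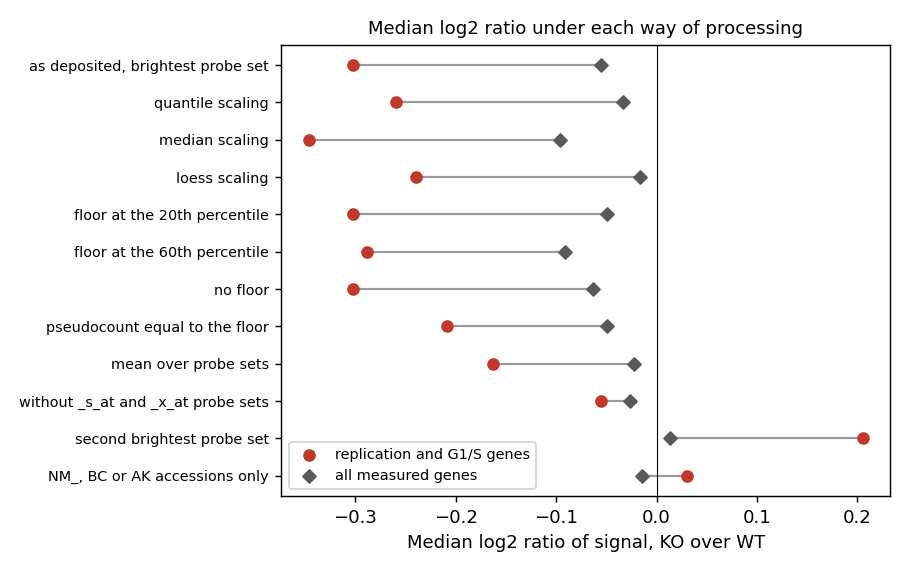
Median log2 ratio of signal, KO over WT, of the replication and G1/S genes (circles) and of all measured genes (diamonds) under each way of processing. The circles lie left of the diamonds under all scalings and floors and move toward 0 or past it when other probe sets are read.

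Other genes of the pathway were read from lists outside the 44, and the lists differed in direction. Of 41 further replication genes measured, 30 were below 0 (73.2%), 5 were at least 2-fold lower (12.2%) and 1 at least 2-fold higher (2.44%), with a median of -0.41, beside 53.7%, 6.72%, 3.73% and -0.055 for all genes. The largest differences were in Dck, a deoxycytidine kinase (442.47 and 156.68, with both other probe sets above 0), Chtf18, of an alternative clamp loader (112.22 and 43.23, at least 2.39-fold lower), Rpa3, the small RPA subunit (120.37 and 256.83, higher), and Wdhd1, which links polymerase alpha to the helicase (166.79 and 78.51). Rpa3 and Rpa2, subunits of 1 complex, thus ran opposite ways by their brightest probe sets. Of 21 further E2F and G1/S regulators, 10 were below 0 (47.6%), 0 were at least 2-fold lower and 2 at least 2-fold higher (9.52%), with a median of 0.11. These were Cdk4, a cyclin D kinase (654.57 and 1763.93, with both other probe sets also above 0), and Myc, a growth-driving transcription factor (239.33 and 533.09, 1 probe set). E2f7, a repressor of S-phase genes, read 168.87 and 91.93, and Rb1, the retinoblastoma protein gene, 777.14 and 433.83.

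Of 11 measured mitotic genes, 7 were below 0 (63.6%, all genes 53.7%) and 1 at least 2-fold lower (9.09%, all genes 6.72%). None was at least 2-fold higher (all genes 3.73%), and the median was -0.015, beside -0.055 for all genes. Mki67, the proliferation antigen Ki-67, read 578.22 and 259.94 and Birc5, survivin, 507.40 and 300.16, while Plk1, polo-like kinase, read 176.64 and 316.96 and Cdk1, the mitotic kinase, 507.69 and 811.42. Markers of proliferation therefore stood on both sides of 0.

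The cultures were checked against marker genes. Of 10 myoblast markers 9 were measured on these arrays, 5 of them below 0 (55.6%, all genes 53.7%), and Cd34 was under the floor on both. The muscle factors Myf5 (731.38 and 723.84), Pax7 (512.87 and 626.84) and Myod1 (631.27 and 1750.95) were level or higher. So were Vcam1 (687.48 and 729.97, with 2 other probe sets at log2 ratios of 2.59 and 2.97) and Msc (27.82 and 69.05). The intermediate filament gene Des (2024.29 and 1090.79), Itga7 (659.27 and 429.72), Cdh15 (386.26 and 263.87) and Ncam1 (422.96 and 371.09) were lower. The other probe set of Des (log2 ratio 0.82) and 1 of 6 others of Ncam1 were above 0. The summed signals of the 9 markers, WT and then KO, were 6084 and 6056. Of 20 markers of differentiated muscle, whose cells have left the cycle, 19 were at least 2-fold lower on the KO array (95%, all genes 6.72%). The median log2 ratio of the 20 was -2.64, with summed signals of 37403 and 7170. Markers of other cell types were measured in part. Of 11 fibroblast markers 7 were measured (sums 1680 and 1887), 3 of them below 0 (42.9%, all genes 53.7%). Col1a2 read 423.24 and 701.07, and Pdgfra 453.70 and 388.91. Tcf7l2 read 298.41 and 139.13, while its 3 other measured probe sets were above 0. Pdgfrb, Lum, Thy1 and Fap were under the floor. Of 10 macrophage and leukocyte markers 7 were measured (929 and 812), 5 of them below 0 (71.4%, all genes 53.7%). Adgre1 read 312.77 and 210.32, and Csf1r, in the other direction, 171.16 and 276.49. Ptprc, Cd68 and Itgam were under the floor. Of 8 endothelial markers 3 were measured (184 and 259), 1 of them below 0 (33.3%, all genes 53.7%). Esam read 45.06, under the floor, and 94.66, at least 2.01-fold higher. Of 6 adipogenic markers 4 were measured (838 and 462), 3 of them below 0 (75%, all genes 53.7%). Fabp4 read 412.18 and 113.25, and Cebpa, in the other direction, 152.03 and 206.82. The part of differentiation or of other cells in the replication values was not tested. Foxj3 itself read 495.51 and 77.28 by 1435362_at, and 79.74 and 99.40 by 1438220_at, and which part of the gene was deleted is not given in the sources used here.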

How the data were processed

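The value table deposited by the authors holds a linear signal intensity per probe set for 1 WT and 1 KO array (medians 62.03 and 63.94), used as deposited. How probes were summarised and arrays scaled is not given in the sources used here. Names came from the platform annotation, with symbols updated by Entrez identifier in a RefSeq table: of 45037 probe sets, 34945 had 1 symbol and were used, 932 had several (among them 1 for Tyms and a pseudogene) and 9160 were not listed.

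Signals under the floor were set to it before log2, so that such a ratio is a bound ("at least"). Each gene was represented by its measured probe set with the highest mean log2 signal. All 44 genes are named, with Foxj3 and the 4 largest ratios of each further replication or cell cycle list; marker genes named singly, and genes named in the closing section, were chosen after their values were seen. The members and lists were chosen with earlier results of these data known. The calculation (Python 3.11.15, numpy 2.4.6, pandas 2.3.3, statsmodels 0.14.6 for loess with a span of 0.3) was tested on simulated data. These held large changes in bright genes and less noise than the spread between probe sets of a gene here. That test therefore checks the arithmetic and says nothing of calls near the floor or near 2-fold. Alternatives were the scaling, floor, pseudocount, choice of probe set and threshold.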

Additional observations from a re-analysis of the deposited data

How the results depend on the processing

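With 1 array per group no replicate could be left out, and no paired analysis was possible because each group holds 1 array. A median was counted as moved when it shifted by more than the SD between probe sets of a gene (0.66, log2) over the square root of the number of genes. A count of genes was taken as the same when it was equal or within a factor of 1.5, and otherwise as moved. Of 136 values under alternatives, counts and medians together, 99 were the same, 21 moved and 16 changed sign. With NM_, BC or AK accessions only, 4 genes were at least 2-fold lower (13.3%, all genes 5.71%). The medians were 0.030 (whole set), 0.089 (G1/S regulators), 0.34 (MCM2-7 ring) and 0.18 (RFC and clamp). With the second brightest probe set, measured in 27 genes, 6 were at least 2-fold lower (22.2%, all genes 6.80%) and 3 higher (all genes 7.45%). The 6 shared 0 genes with the 7 that were lower by brightest probe sets. The medians were then 0.21 (whole set), -1.01 (G1/S regulators), 0.46 (licensing), 0.39 (MCM2-7) and 0.28 (GINS, Cdc45 and Mcm10). They were -1.36 (polymerases), -0.56 (RFC and clamp), 0.33 (strand completion and repair), 0.50 (nucleotide supply) and -0.91 (chromatin). With the mean over probe sets, 1 gene was at least 2-fold higher (all genes 3.03%). The medians were -0.16 (whole set), -0.32 (polymerases), -0.74 (strand completion and repair), 0.35 (nucleotide supply) and -0.51 (chromatin). Without _s_at and _x_at probe sets they were -0.056 (whole set) and 0.39 (MCM2-7). With quantile scaling 1 gene was at least 2-fold higher (all genes 4.07%), and the medians of licensing, polymerases and chromatin were -0.035, 0.085 and 0.033. With loess scaling 1 gene was at least 2-fold higher (all genes 4.20%), and the medians of polymerases and chromatin were 0.10 and 0.045. With the floor at the 60th percentile 3 genes were at least 2-fold lower (7.5%, all genes 5.99%) and the strand completion and repair median was -0.71. With the pseudocount these values were 3 genes (6.98%, all genes 3.34%) and -0.89. At 1.5-fold 1 gene was higher (all genes 12.8%). At 3-fold 0 were lower (all genes 1.51%), a count that rests on the bound of Ung (2.99), whose log2 ratio without a floor was -1.77. The cause of these differences was not tested. Median scaling moved the median of all genes from -0.055 to -0.097, and no scaling moved it by over 0.1.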

Other observations

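Pairs of probe sets designed from the same accession give a closer comparison than probe sets of a gene in general. Among the replication and G1/S genes there were 10 such pairs with both probe sets measured. In 4 of them (Cdt1, Prim1, Rfc1 and Rrm2) both log2 ratios had the same sign, and in 5 (Gins2, Mcm10, Prim1, Rfc1 and Rrm1) they differed by at least 2-fold. Over all genes 56.9% of 2174 such pairs shared a sign and 24.7% differed by at least 2-fold, with a median difference of 0.56 on the log2 scale, beside 0.99 for the 10 pairs. The widest pair was that of Rrm1, at -0.35 and 3.58. Without a second array of either culture, no pair could be set against a spread between arrays.

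Among the genes chosen by their values, Dnmt1, the maintenance DNA methyltransferase that works with Uhrf1, read 351.49 and 202.53 (log2 ratio -0.80), and its 2 other measured probe sets were lower as well, at -1.22 and -1.19. Gmnn, which encodes the licensing inhibitor geminin, read 330.34 and 175.58 by its single measured probe set. Cdt1, the target of geminin, was above 0 by both measured probe sets, but its brightest turned to -0.089 with quantile scaling. A link between these genes was not tested.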
